A study of Mus musculus with 19 samples.

Results

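The interferon-stimulated antiviral genes described here are 37 mouse genes that type I interferon is known to switch on in most cell types. They were taken by gene symbol: each of the 37 symbols has a row in the count tables, out of 16941 genes, and all 37 were among the 14113 genes tested. The cells were microglia, the resident macrophages of the brain, and were taken from cortices of C57BL/6 mice, 10 to 11 months old, which were wild type (WT) or carried the transgene hAPPJ20 (PDGFAPPSw,Ind), called APP here. In that line a PDGF promoter, active mainly in neurons, drives human amyloid precursor protein with the Swedish and Indiana mutations. All 4 groups shared 4 weeks of culture in 10% fetal bovine serum with 5 ng/mL macrophage colony-stimulating factor. Cells then received vehicle, which was medium only, or 100 ng/mL lipopolysaccharide (LPS, a cell wall component of Gram-negative bacteria) for 6 h, and were collected after 16 h of recovery in fresh medium. There were 4 WT vehicle libraries and 5 each of WT LPS, APP vehicle and APP LPS. Whether each library had its own animal or culture is not in the labels; the spread on which p-values rest is therefore that of libraries and may be technical.

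As background, LPS binds Toll-like receptor 4, which signals at the cell surface through MyD88 and, after uptake, through the adaptors encoded by Ticam2 and Ticam1 to the transcription factor IRF3. IRF3 switches on interferon β, which leaves the cell, binds the receptor IFNAR1/IFNAR2 on the same or neighbouring cells, and activates the kinases JAK1 and TYK2. Their signal leads to the transcription factor complex ISGF3, which contains STAT2 and IRF9 and binds the interferon-stimulated response element in the promoters of antiviral genes. Microglia are known to carry this response, and a share of microglia with raised interferon-stimulated transcripts has been described in ageing and amyloid models.

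Library totals ran from 13065257 to 31248988 counts, with a median of 21918747, so that 3 counts, the smallest level treated as detected, corresponded to 0.0963 to 0.249 CPM (counts of a gene scaled to a common library total) depending on the library. This limit covers counting error only. Levels are CPM scaled by the trimmed mean of M values, and since each read comes from the 3′ end of a transcript, CPM follows transcript number without a correction for length. The labelled cell type was checked with 18 macrophage and microglia markers, whose summed level was 6302 to 12429 CPM in 15 libraries and 1873 to 3776 CPM in the libraries numbered 57 to 60, of which each group holds 1. P2ry12, which defines resting microglia in the brain, was at 0 in 6 libraries and at most 28.6 CPM, and Tmem119 was at 0 in 3 libraries and at most 17.2 CPM. Fibroblast and pericyte markers other than Lrrc17 (14 genes) summed to 1504 to 7359 CPM and exceeded the macrophage sum in 3 libraries. Lrrc17 alone stood at 21324 to 77916 CPM. The 13 lymphocyte and NK cell markers, 7 of them with rows in the count tables, summed to 0.0646 to 10.98 CPM. Of 5 plasmacytoid dendritic cell markers with rows, Siglech, Ccr9 and Pacsin1 were at 0 in 15, 14 and 17 libraries. The other markers of that list went the other way, with Tcf4 at 156 to 440 CPM and Cox6a2 at 0 to 30.8 CPM. That list therefore gives no single answer on such cells.

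The promoters are shown first, because the set was defined by a response that these sequences are known to carry. RefSeq promoters (GRCm38.p6, 250 bases before to 50 after each annotated start) were found for 27 of the 37 genes; Dhx58, Ifi204, Ifi27l2a, Mx1, Mx2, Oas2, Parp14, Rtp4, Usp18 and Zbp1 had no entry. The core of the interferon-stimulated response element, GAAA and GAAA separated by any 2 bases, was searched on both strands and was present in 14 of the 27 genes (51.9%), against 3.99% of all 27025 genes with a RefSeq promoter. The gamma-activated site, TTC and GAA separated by 3 bases, was present in 8 of 27 (29.6%, against 9.55%). The κB letters, GGGA and TTCC separated by 2 bases, were present in 3 of 27 (11.1%, against 1.63%). In 60 other interferon-stimulated genes, outside the 37, the response element core was present in 48.3%. The gamma-activated site was present in 8.33% of those 60 and the κB letters in 3.33%. Response element and gamma-activated site shared bases in Bst2 and Ifitm3. Below, 7 promoters are printed 5′ to 3′ on the strand of the gene, from 250 bases before the start to 30 after it. Isg15, Ifit1, Rsad2, Bst2 and Ifitm3 show the response element core in capitals, Irf1 shows the gamma-activated site in capitals, and Irf7 has neither. A match on the opposite strand reads as its reverse complement, as in Ifit1 and Rsad2.
Isg15 (chr4:156200789-156201068, minus strand): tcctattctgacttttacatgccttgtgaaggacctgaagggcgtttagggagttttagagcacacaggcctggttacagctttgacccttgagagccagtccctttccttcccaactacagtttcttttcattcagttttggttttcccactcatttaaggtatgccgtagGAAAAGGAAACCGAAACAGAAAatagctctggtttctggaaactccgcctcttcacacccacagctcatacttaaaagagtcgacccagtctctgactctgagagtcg
Ifit1 (chr19:34640639-34640918, plus strand): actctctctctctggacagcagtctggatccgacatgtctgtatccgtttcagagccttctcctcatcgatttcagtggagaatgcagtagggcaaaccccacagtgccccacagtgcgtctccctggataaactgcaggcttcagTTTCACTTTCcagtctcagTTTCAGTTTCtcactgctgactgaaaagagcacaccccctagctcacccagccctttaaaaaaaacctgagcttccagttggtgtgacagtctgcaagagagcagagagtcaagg
Rsad2 (chr12:26456423-26456702, minus strand): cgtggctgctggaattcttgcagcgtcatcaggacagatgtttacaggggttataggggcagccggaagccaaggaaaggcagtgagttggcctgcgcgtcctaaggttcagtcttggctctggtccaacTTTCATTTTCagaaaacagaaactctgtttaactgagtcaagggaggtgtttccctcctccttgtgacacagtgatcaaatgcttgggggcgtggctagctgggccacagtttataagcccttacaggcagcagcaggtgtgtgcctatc
Bst2 (chr8:71537443-71537722, minus strand): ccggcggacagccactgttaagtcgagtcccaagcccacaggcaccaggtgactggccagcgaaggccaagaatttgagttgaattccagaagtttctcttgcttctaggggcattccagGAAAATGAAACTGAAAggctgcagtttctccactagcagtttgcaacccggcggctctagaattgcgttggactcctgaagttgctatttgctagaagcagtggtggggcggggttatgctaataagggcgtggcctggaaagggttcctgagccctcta
Ifitm3 (chr7:141010715-141010994, minus strand): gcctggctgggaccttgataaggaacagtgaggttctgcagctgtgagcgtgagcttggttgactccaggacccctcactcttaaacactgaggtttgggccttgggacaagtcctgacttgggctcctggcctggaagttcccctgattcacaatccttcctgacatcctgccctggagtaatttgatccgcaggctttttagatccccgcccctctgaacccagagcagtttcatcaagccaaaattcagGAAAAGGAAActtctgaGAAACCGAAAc
Irf7 (chr7:141266395-141266674, minus strand): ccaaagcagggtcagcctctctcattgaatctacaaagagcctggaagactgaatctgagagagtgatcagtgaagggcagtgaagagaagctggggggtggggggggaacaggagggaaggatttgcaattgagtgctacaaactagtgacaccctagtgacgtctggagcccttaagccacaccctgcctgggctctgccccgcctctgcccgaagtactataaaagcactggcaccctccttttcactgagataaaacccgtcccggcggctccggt
Irf1 (chr11:53769764-53770043, plus strand): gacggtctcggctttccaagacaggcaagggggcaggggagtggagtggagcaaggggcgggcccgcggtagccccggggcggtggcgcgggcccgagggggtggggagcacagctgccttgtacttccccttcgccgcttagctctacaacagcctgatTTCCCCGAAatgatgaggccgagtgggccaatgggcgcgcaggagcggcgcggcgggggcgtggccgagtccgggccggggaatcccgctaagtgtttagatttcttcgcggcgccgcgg
Isg15 held 3 matches whose first bases lay 78, 72 and 66 bases before the start, each sharing bases with the next. Ifit1 held matches at 104 and 85 bases before the start, Bst2 a sharing pair at 130 and 124, and Rsad2 1 match at 120. In Ifitm3 both matches lay after the start, at positions 3 and 20. Irf1 is shown for the first of its 2 annotated starts, with the gamma-activated site beginning 90 bases before it. The remaining genes with a response element core were Eif2ak2, Ifih1, Ifit3, Ifit3b, Oas1a, Oas3, Slfn5, Stat2 and Trim30a. A match is a description of letters and does not show that a factor binds there.

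As a summed level, the 37 genes varied more between vehicle libraries than between LPS libraries. Numbers given to libraries below are those in the sample labels, in which vehicle and LPS libraries of 1 genotype mostly carry consecutive numbers. Among the 9 vehicle libraries the sum was 1369 CPM in library 3, 1615 in 7, 1562 in 9, 1466 in 11 and 1785 in 21. It was 3349.6 CPM in library 41, 3294 in 51, 2959.8 in 57 and 6274 in 59. The vehicle libraries thus covered a 4.58-fold range, with the 5 lowest-numbered ones close together and the 4 highest-numbered ones all above them. The 10 LPS libraries covered a 1.60-fold range, from 2922 CPM in library 52 to 4682 CPM in library 10. Per group, the sum was 2414 ± 874 CPM in WT vehicle (SD, n = 4) and 3749 ± 764 CPM in WT LPS (n = 5). It was 2804 ± 2094 CPM in APP vehicle and 3875 ± 676 CPM in APP LPS (n = 5 each). The highest sum of all 19 libraries was that of APP vehicle replicate 5 (library 59), an untreated culture. In bulk RNA, a larger share of responding cells and more RNA per cell cannot be told apart.

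**Figure D1:**
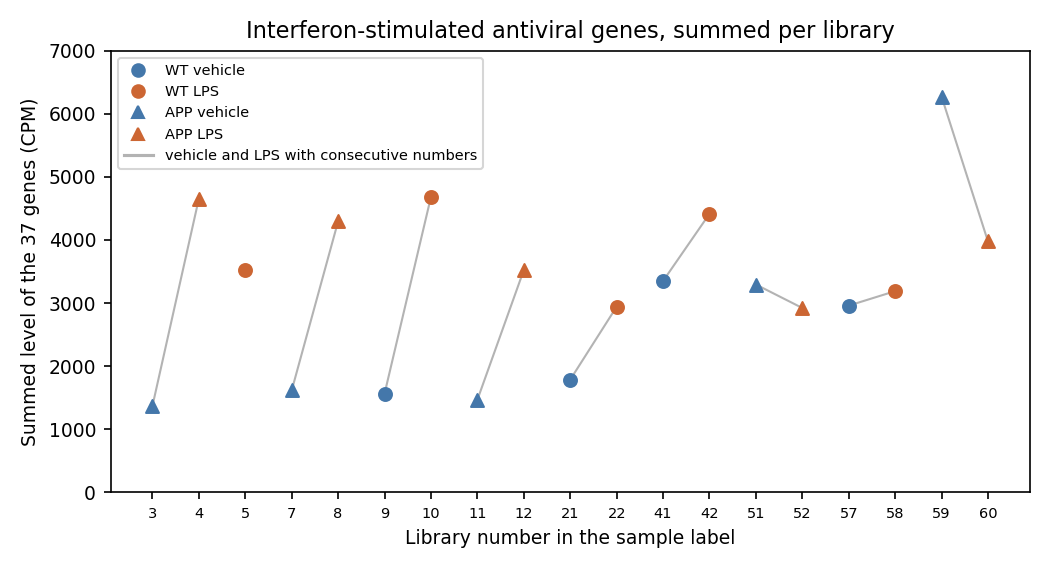
Summed level of the 37 genes in CPM (linear axis from 0) for each library, ordered by library number; circles are WT, triangles APP, blue vehicle and orange LPS, and grey lines join vehicle and LPS libraries with consecutive numbers. Vehicle libraries 3 to 21 lie between 1369 and 1785 CPM and vehicle libraries 41 to 59 between 2960 and 6274 CPM, while the LPS libraries lie between 2922 and 4682 CPM.

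The spread between vehicle libraries was wider for these genes than for most. The SD of log2(CPM + 0.5) over the 9 vehicle libraries had a median of 1.31 across the 37 genes, against 0.76 across all genes tested. Over the 10 LPS libraries the medians were 0.66 for the 37 genes and 0.84 for all genes. The SD was larger with vehicle than with LPS in 27 of the 37 genes, against 42.9% of all genes. Without APP vehicle replicate 5 the median SD with vehicle was 1.07 and the count 23 of 37, and without the libraries numbered 57 to 60 they were 1.00 and 24. The plot of SD with vehicle against SD with LPS shows most genes above the line of equal spread.

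**Figure D2:**
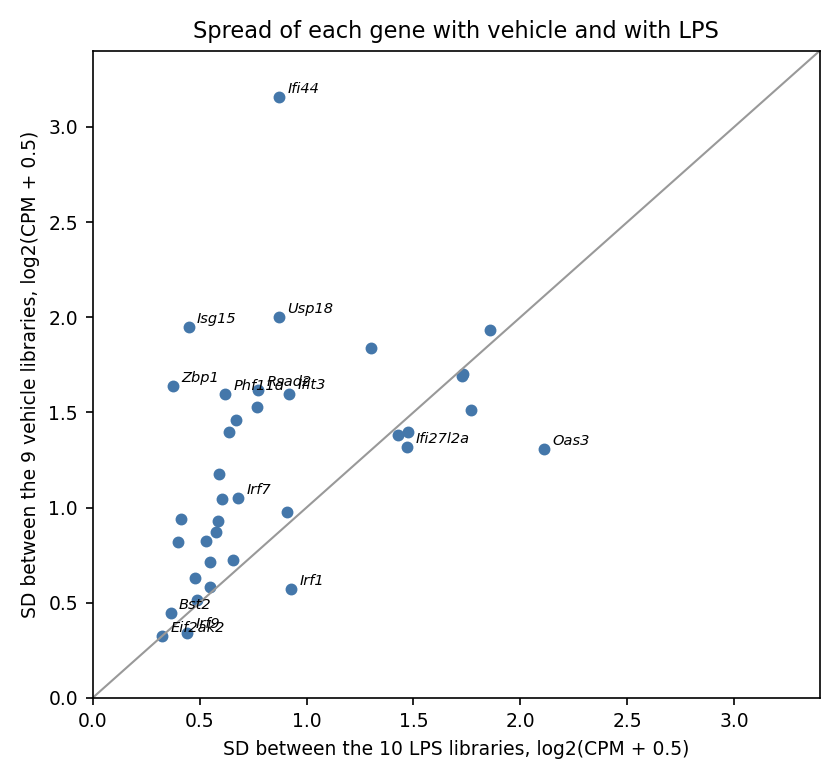
SD of log2(CPM + 0.5) between the 10 LPS libraries (horizontal) and between the 9 vehicle libraries (vertical), 1 point per gene, with the line of equal spread. Isg15, Zbp1, Usp18 and Ifi44 lie far above the line, at vehicle SDs of 1.95, 1.64, 1.9998 and 3.16, and Eif2ak2 lies low on both axes, at 0.323 and 0.326.

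Isg15, Zbp1, Ifit1, Ifit3 and Rsad2 were among those with this pattern. The level of Isg15 ran from 42.2 to 1681 CPM among vehicle libraries, a 39.9-fold range, and over a 2.81-fold range among LPS libraries. The corresponding folds were 89.6 and 2.27 for Zbp1, 27.5 and 9.16 for Ifit3, 24.7 and 7.13 for Rsad2, and 21.4 and 4.45 for Ifit1. At the other end, the vehicle libraries stayed within a 1.85-fold range for Eif2ak2, 2.03-fold for Irf9 and 2.89-fold for Bst2. Irf1 was among the genes that went the other way, with a 3.41-fold range with vehicle and 8.05-fold with LPS. Ifit3b was another, at 35.4-fold with vehicle and 57.0-fold with LPS. APP vehicle replicate 5 was the highest of the 9 vehicle libraries for 24 of the 37 genes, against 13.4% of all genes, and WT vehicle replicate 3 (library 41) for 7. For 9 genes APP vehicle replicate 5 was the highest of all 19 libraries.

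A split by library number was described after the values were seen and was given no test. In 16 of the 37 genes, every vehicle library numbered 41 or above exceeded every vehicle library numbered 21 or below, against 3.12% of all genes tested; 0 of the 37 showed the opposite order, against 2.13%. The 16 were Ifit1, Ifit3, Isg15, Oasl1, Oasl2, Rsad2, Usp18, Ifi44, Ifih1, Rtp4, Xaf1, Zbp1, Trim30a, Slfn5, Phf11d and Sp100. Of the genes with a promoter entry, 7 of the 14 with a response element core and 6 of the 13 without one were among them. Both genotypes stand on each side of the split, with WT in libraries 9, 21, 41 and 57. The inflammatory transcripts used as a reference below also stood higher in the later vehicle libraries, at 2103 to 5383 CPM in libraries 3 to 21 and 7155 to 8685 CPM in libraries 41 to 59. Libraries 57 and 59 are those with low macrophage markers; libraries 41 and 51, whose macrophage sums were in the range of the other 15, had 3349.6 and 3294 CPM of the 37 genes. What the library numbers stand for is not given in the labels, and the part of culture or handling in the split was not tested.

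**Figure D3:**
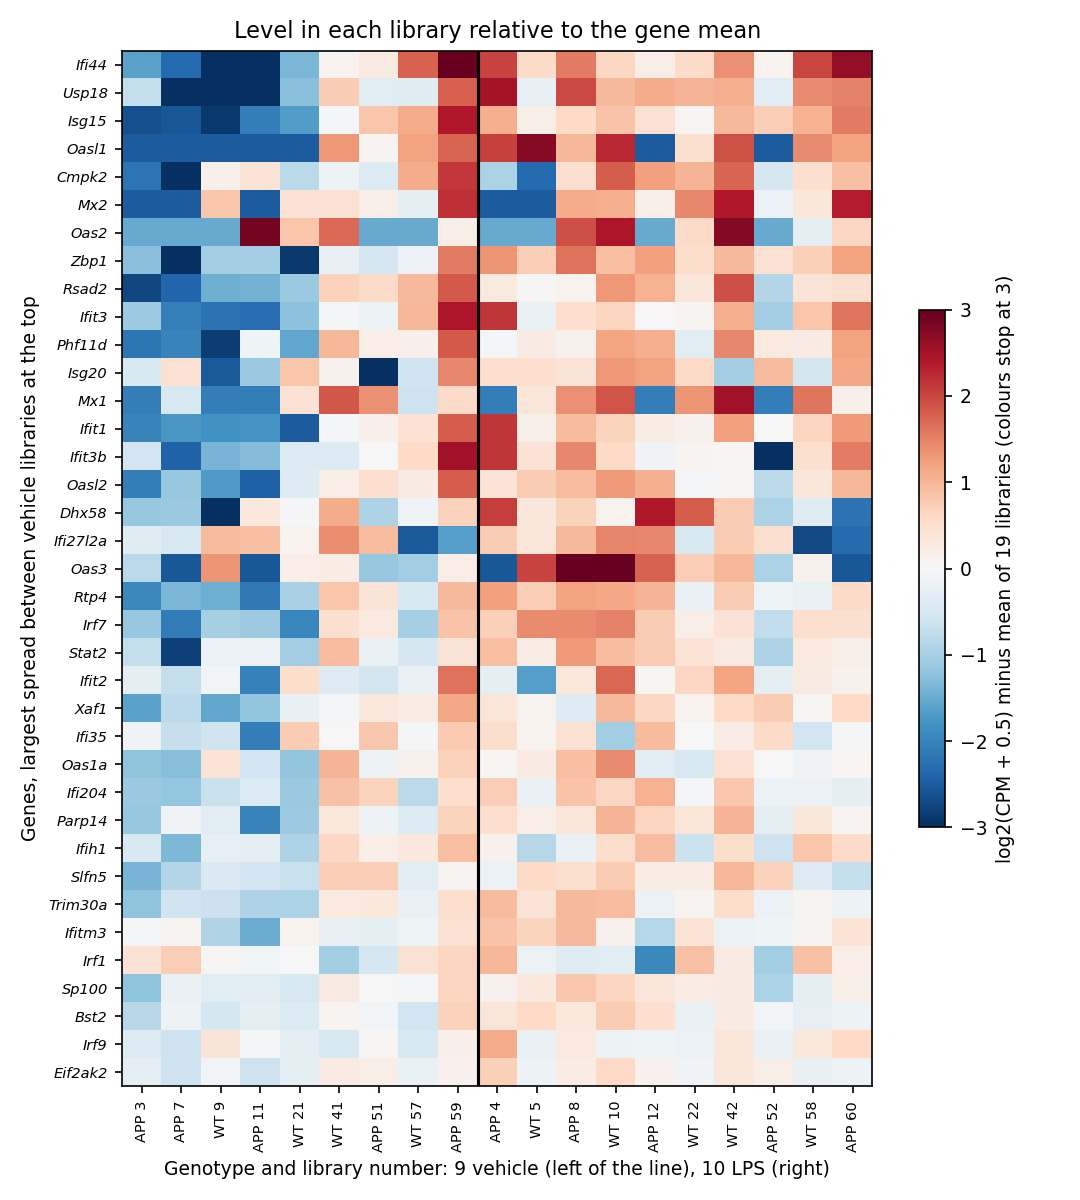
Level of each of the 37 genes (rows, ordered by spread between vehicle libraries) in each library (columns, by treatment and then library number), as log2(CPM + 0.5) minus the gene's mean over 19 libraries, with colours stopping at 3. To the left of the line, vehicle libraries 3 to 21 are mostly blue and 41 to 59 mostly red for the upper rows. Over all rows, 24 of the 37 genes have their highest vehicle level in library 59. The LPS libraries on the right differ less.

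In the values that follow, each group is listed in order of replicate number, 1 to 4 in WT vehicle and 1 to 5 in the other groups. Vehicle replicates carry library numbers 9, 21, 41 and 57 in WT and 3, 7, 11, 51 and 59 in APP. LPS replicates carry 5, 10, 22, 42 and 58 in WT and 4, 8, 12, 52 and 60 in APP. Differences given with ± are log2 of LPS over vehicle with the SE of edgeR's group fit. None of those within a genotype passed an adjusted p of 0.05.

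Among the transcription factors, Irf7, the factor that amplifies interferon production, had the largest averaged difference of the 4. In WT, Irf7 stood at 11.98, 5.87, 33.9 and 11.96 CPM with vehicle and 66.3, 68.6, 27.9, 32.96 and 34.7 CPM with LPS. In APP, Irf7 stood at 10.7, 5.28, 11.2, 30.1 and 44.1 CPM with vehicle and 40.4, 66.2, 41.7, 14.3 and 34.0 CPM with LPS. Each genotype had overlapping groups: 3 of 5 WT LPS libraries exceeded every WT vehicle library, and 1 of 5 APP LPS libraries exceeded every APP vehicle library. Against APP vehicle replicates 1 to 4 alone, 4 of 5 APP LPS libraries were higher. Irf7 differed by 1.53 ± 0.56 in WT and 0.95 ± 0.53 in APP on the log2 scale.

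Stat2, a subunit of ISGF3, was at low and uneven levels with vehicle. In WT, Stat2 was at 21.3, 11.6, 46.7 and 17.1 CPM with vehicle and 28.6, 46.4, 32.7, 29.2 and 29.7 CPM with LPS. In APP, Stat2 was at 14.6, 3.04, 21.3, 21.1 and 31.9 CPM with vehicle and 45.7, 59.95, 41.6, 12.6 and 27.4 CPM with LPS. WT vehicle replicate 3 was above every WT LPS library, and APP vehicle replicate 2 was the lowest library of all. On the log2 scale, Stat2 had differences of 0.46 ± 0.51 in WT and 1.03 ± 0.48 in APP. Irf9, the DNA-binding subunit of ISGF3, varied little. In WT, Irf9 measured 46.9, 29.2, 25.4 and 25.5 CPM with vehicle and 31.02, 32.5, 31.7, 46.2 and 45.2 CPM with LPS. In APP, Irf9 measured 26.9, 23.1, 34.3, 37.1 and 40.1 CPM with vehicle and 79.0, 44.0, 32.7, 31.1 and 54.3 CPM with LPS. In APP, 3 LPS libraries lay above every vehicle library; in WT, none did. Fitted log2 differences of Irf9 were 0.23 ± 0.30 in WT and 0.58 ± 0.29 in APP. Irf1, a factor known to answer to interferon γ and NF-κB more than to ISGF3, did not follow the others. In WT, Irf1 was at 35.2, 34.2, 16.8 and 47.3 CPM with vehicle and 30.1, 27.2, 63.2, 40.8 and 63.9 CPM with LPS. In APP, Irf1 was at 46.2, 57.3, 32.4, 23.6 and 53.9 CPM with vehicle and 68.9, 26.6, 8.57, 16.4 and 39.3 CPM with LPS. Its lowest library of all 19 was APP LPS replicate 3, and its highest was APP LPS replicate 1. For Irf1 the log2 differences were 0.43 ± 0.46 in WT and −0.42 ± 0.43 in APP.

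Of the IFIT family, IFIT1 is known to bind viral RNA that lacks host cap methylation. In WT, Ifit1 stood at 11.6, 7.03, 40.9 and 56.8 CPM with vehicle and 47.9, 67.3, 46.2, 100.1 and 66.5 CPM with LPS. In APP, Ifit1 stood at 10.1, 12.3, 11.9, 46.8 and 150.5 CPM with vehicle and 187, 81.3, 48.9, 41.96 and 103 CPM with LPS. Vehicle replicates 1 to 3 of both genotypes were below every LPS library, WT vehicle replicate 4 and APP vehicle replicate 4 lay among the LPS libraries, and APP vehicle replicate 5 lay above all of them but 1. Ifit1 differed by 1.17 ± 0.69 in WT and 0.99 ± 0.65 in APP on the log2 scale. Ifit3, of the same family, was likewise higher in the vehicle libraries numbered 41 or above. In WT, Ifit3 was at 11.6, 23.5, 54.4 and 112 CPM with vehicle and 48.5, 88.1, 58.9, 119.8 and 99.3 CPM with LPS. In APP, Ifit3 was at 26.1, 13.1, 11.1, 50.2 and 304 CPM with vehicle and 247, 79.3, 55.9, 27.0 and 169.9 CPM with LPS. APP vehicle replicate 5 was the highest library of all for Ifit3. On the log2 scale, Ifit3 had differences of 0.72 ± 0.80 in WT and 0.52 ± 0.75 in APP. Ifit3 shares 61.8% of its 31-base words with Ifit3b in GENCODE M21 transcripts, counted over whole transcripts. Since reads come from 3′ ends, how uncertain the split between the copies is was not measured. Ifit3b ranged over 3.33 to 118 CPM with vehicle and 1.58 to 89.95 CPM with LPS. Ifit2 ranged over 3.71 to 52.5 CPM with vehicle and 4.94 to 56.5 CPM with LPS.

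Isg15 encodes a ubiquitin-like protein that is attached to other proteins and also secreted. In WT, Isg15 stood at 42.2, 99.6, 306 and 687 CPM with vehicle and 359, 577, 331, 624.8 and 655 CPM with LPS. In APP, Isg15 stood at 50.3, 53.5, 74.9, 563 and 1681 CPM with vehicle and 676, 484, 438, 529.6 and 933 CPM with LPS. The LPS libraries were all within 331 to 933 CPM, while vehicle ranged from well below them to APP vehicle replicate 5, the highest of all. Fitted log2 differences of Isg15 were 0.84 ± 0.80 in WT and 0.34 ± 0.76 in APP. Of its 31-base words, 12.8% occur in other transcripts. Usp18, which removes ISG15 and restrains the interferon receptor, was low. In WT, Usp18 was at 0, 2.08, 9.83 and 4.29 CPM with vehicle and 4.70, 11.5, 11.8, 12.5 and 15.9 CPM with LPS. In APP, Usp18 was at 3.23, 0, 0, 4.33 and 20.8 CPM with vehicle and 33.9, 23.5, 12.8, 4.32 and 16.7 CPM with LPS. WT vehicle replicate 1 and APP vehicle replicates 2 and 3 had no count, while every LPS library had some. For Usp18 the log2 differences were 1.48 ± 1.28 in WT and 1.68 ± 1.21 in APP.

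**Figure D4:**
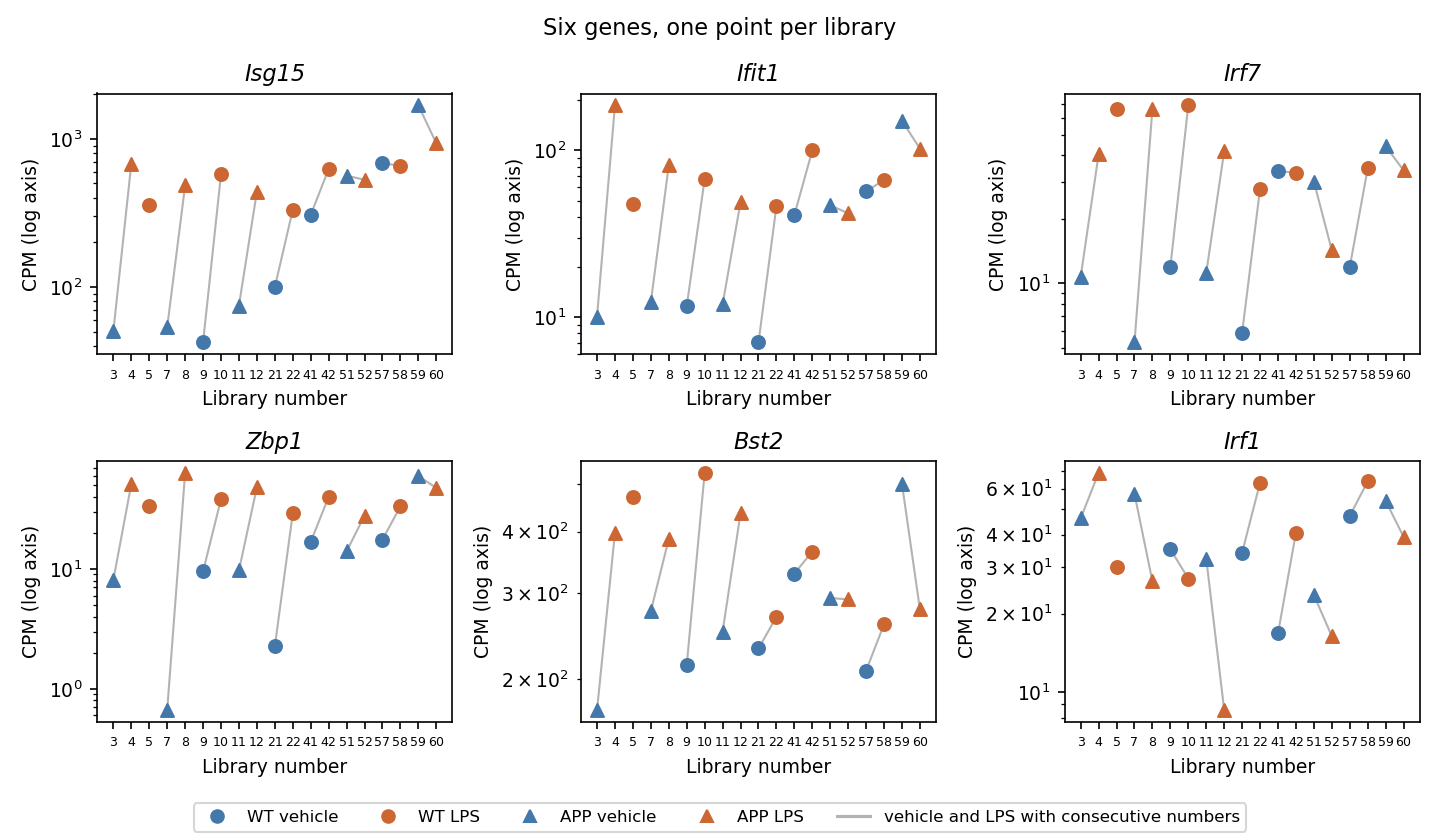
Level of Isg15, Ifit1, Irf7, Zbp1, Bst2 and Irf1 in each library (CPM, log axis), ordered by library number; circles are WT, triangles APP, blue vehicle, orange LPS, and grey lines join consecutive vehicle and LPS libraries. For Isg15, Ifit1, Irf7 and Zbp1 the lines climb steeply in pairs 3 and 4 to 11 and 12 and fall in pair 59 and 60; Bst2 and Irf1 keep a narrower range with vehicle.

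Of the antiviral enzymes, Rsad2 and Oasl2 had the order of vehicle libraries described above, and Oas1a, Mx1 and Eif2ak2 did not. Rsad2, or viperin, makes a chain-terminating nucleotide. In WT, Rsad2 stood at 28.96, 36.9, 132 and 158 CPM with vehicle and 83.4, 201, 102, 311 and 106 CPM with LPS. In APP, Rsad2 stood at 11.8, 15.0, 30.2, 120.5 and 292 CPM with vehicle and 98.7, 87.2, 167, 43.6 and 113 CPM with LPS. WT vehicle replicates 3 and 4 and APP vehicle replicate 4 lay among the LPS libraries of their genotype. APP vehicle replicate 5 lay above every APP LPS library. Rsad2 differed by 0.85 ± 0.72 in WT and 0.12 ± 0.68 in APP on the log2 scale. Cmpk2, its neighbour on the chromosome in GRCm38.p6, which supplies its substrate, ranged over 0 to 37.8 CPM with vehicle and 1.25 to 30.7 CPM with LPS. Isg20, an RNA exonuclease, ranged over 0.0555 to 13.4 CPM with vehicle and 2.004 to 12.1 CPM with LPS, with the lowest value below the limit of 3 counts. Oasl2 belongs to the oligoadenylate synthetase family, which senses double-stranded RNA. In WT, Oasl2 was at 8.09, 20.9, 31.6 and 32.4 CPM with vehicle and 46.7, 66.5, 26.7, 28.1 and 34.9 CPM with LPS. In APP, Oasl2 was at 6.06, 12.2, 4.56, 38.6 and 97.5 CPM with vehicle and 36.3, 51.9, 57.95, 15.4 and 54.6 CPM with LPS. In WT, 3 of 5 LPS libraries exceeded every vehicle library, and in APP none did. On the log2 scale, Oasl2 had differences of 0.80 ± 0.66 in WT and 0.44 ± 0.62 in APP.

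Oas1a, a catalytic member of the family, shares 68.8% of its 31-base words with other transcripts, nearly all of them with Oas1g. Words were counted over whole transcripts, while reads come from 3′ ends, so how uncertain this makes its level was not measured. In WT, Oas1a was at 42.2, 13.6, 65.5 and 34.9 CPM with vehicle and 37.97, 85.9, 22.5, 44.1 and 29.6 CPM with LPS. In APP, Oas1a was at 13.5, 12.7, 21.3, 28.7 and 51.5 CPM with vehicle and 32.4, 59.9, 25.1, 31.7 and 32.9 CPM with LPS. Its groups overlapped in both genotypes. Fitted log2 differences of Oas1a were 0.17 ± 0.46 in WT and 0.51 ± 0.44 in APP. Oas3 ranged over 0 to 6.84 CPM with vehicle and 0 to 30.8 CPM with LPS, and its APP difference of 3.08 ± 1.48 was the largest of the 37 genes. Oasl1 ranged over 0 to 8.93 CPM with vehicle and 0 to 18.2 CPM with LPS, and its WT difference of 1.73 ± 1.87 was the largest in that genotype. Oas2 was at 0 in 9 libraries and at most 9.97 CPM, and had the lowest APP difference, −0.73 ± 2.20. These 3 genes had low levels and wide errors.

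The MX genes encode GTPases that block viral particles, and in RefSeq's C57BL/6J assembly both Mx1 and Mx2 are annotated as transcribed pseudogenes. In WT, Mx1 was at 0, 2.31, 7.14 and 0.858 CPM with vehicle and 2.21, 7.26, 4.77, 11.6 and 5.88 CPM with LPS. In APP, Mx1 was at 0, 0.999, 0, 4.94 and 2.62 CPM with vehicle and 0, 4.93, 0, 0 and 1.84 CPM with LPS. Mx1 was at 0 in 6 libraries, and the groups overlapped in both genotypes. For Mx1 the log2 differences were 1.30 ± 1.87 in WT and −0.33 ± 1.77 in APP. Mx2 was at 0 in 5 libraries and ranged over 0 to 12.3 CPM with vehicle and 0 to 14.3 CPM with LPS. Eif2ak2 encodes PKR, the kinase that stops translation on sensing double-stranded RNA, and was expressed evenly. In WT, Eif2ak2 stood at 113, 98.5, 143 and 105 CPM with vehicle and 108, 182, 112, 153 and 103 CPM with LPS. In APP, Eif2ak2 stood at 98.1, 78.0, 77.6, 136 and 131 CPM with vehicle and 198, 140.4, 132, 136 and 108 CPM with LPS. Its groups overlapped, with 2 LPS libraries above every vehicle library in each genotype. Eif2ak2 differed by 0.19 ± 0.24 in WT and 0.45 ± 0.23 in APP on the log2 scale.

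Nucleic acid sensors include Zbp1, which recognises Z-form nucleic acid and can trigger cell death. In WT, Zbp1 stood at 9.54, 2.27, 16.8 and 17.6 CPM with vehicle and 33.7, 38.1, 29.03, 39.8 and 33.2 CPM with LPS. In APP, Zbp1 stood at 8.09, 0.666, 9.72, 13.998 and 59.7 CPM with vehicle and 50.9, 63.3, 47.9, 27.8 and 47.3 CPM with LPS. In WT every LPS library exceeded every vehicle library, the only one of the 37 genes of which this was true (0.723% of all genes tested). In APP all 5 LPS libraries exceeded vehicle replicates 1 to 4, and APP vehicle replicate 5 lay above 4 of the 5 LPS libraries; none of the 37 genes was separated in APP (0.255% of all genes). On the log2 scale, Zbp1 had differences of 1.59 ± 0.69 in WT and 1.36 ± 0.65 in APP. Ifih1 encodes MDA5, the sensor of long double-stranded RNA. In WT, Ifih1 stood at 40.1, 25.1, 74.5 and 59.4 CPM with vehicle and 26.3, 69.0, 30.5, 69.7 and 85.4 CPM with LPS. In APP, Ifih1 stood at 34.8, 18.5, 39.98, 54.8 and 89.9 CPM with vehicle and 52.4, 41.7, 91.6, 31.1 and 72.0 CPM with LPS. Vehicle and LPS libraries of Ifih1 overlapped throughout. Fitted log2 differences of Ifih1 were 0.18 ± 0.44 in WT and 0.28 ± 0.41 in APP.

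Dhx58 encodes LGP2, a partner of MDA5 without signalling domains, and stood at low levels. In WT, Dhx58 was at 0, 5.18, 12.1 and 4.88 CPM with vehicle and 6.86, 5.70, 19.99, 9.31 and 3.98 CPM with LPS. In APP, Dhx58 was at 2.14, 2.19, 6.71, 2.56 and 8.79 CPM with vehicle and 23.6, 8.82, 30.01, 2.49 and 0.737 CPM with LPS. Its groups overlapped in both genotypes, though 3 APP LPS libraries lay above every APP vehicle library. For Dhx58 the log2 differences were 0.73 ± 1.08 in WT and 1.55 ± 1.02 in APP. Ifi204, a member of the family of DNA sensors that includes human IFI16, shares 34.0% of its 31-base words with other transcripts, mainly Ifi211. In WT, Ifi204 was at 36.7, 26.7, 108 and 32.9 CPM with vehicle and 50.7, 89.6, 55.6, 103 and 51.2 CPM with LPS. In APP, Ifi204 was at 26.6, 25.9, 43.8, 93.2 and 82.8 CPM with vehicle and 97.3, 105, 119.6, 51.7 and 48.2 CPM with LPS. WT vehicle replicate 3 was the highest WT library for Ifi204, and APP vehicle replicates 1 to 3 were below every APP LPS library. Ifi204 differed by 0.46 ± 0.44 in WT and 0.63 ± 0.42 in APP on the log2 scale.

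Of the membrane proteins, Bst2, or tetherin, holds budding virus at the cell surface. In WT, Bst2 stood at 214, 231, 329 and 208 CPM with vehicle and 470.1, 527, 268, 364 and 259 CPM with LPS. In APP, Bst2 stood at 173, 276, 250.2, 293 and 500.0 CPM with vehicle and 397, 386, 436, 291 and 278 CPM with LPS. In WT 3 of 5 LPS libraries exceeded every vehicle library, and in APP replicate 5 of vehicle was the highest. On the log2 scale, Bst2 had differences of 0.62 ± 0.27 in WT and 0.26 ± 0.26 in APP. Ifitm3, which blocks viral fusion in endosomes, had a 3.85-fold range among vehicle libraries. In WT, Ifitm3 was at 215, 432, 345 and 365 CPM with vehicle and 640.3, 441, 535, 356 and 421 CPM with LPS. In APP, Ifitm3 was at 386, 425, 143, 334 and 549.8 CPM with vehicle and 728, 787, 222, 367 and 535 CPM with LPS. Its groups overlapped in both genotypes. Fitted log2 differences of Ifitm3 were 0.50 ± 0.34 in WT and 0.52 ± 0.32 in APP. Of its 31-base words, 20.5% occur in other transcripts. Rtp4, a chaperone of membrane receptors with antiviral action, ranged over 20.7 to 184 CPM with vehicle and 81.3 to 222 CPM with LPS.

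Ifi27l2a, a small mitochondrial and nuclear membrane protein, differed between sets of libraries. In WT, Ifi27l2a was at 112, 62.3, 153 and 9.71 CPM with vehicle and 75.0, 160.1, 41.7, 99.0 and 8.42 CPM with LPS. In APP, Ifi27l2a was at 45.0, 41.4, 108, 111 and 17.98 CPM with vehicle and 98.6, 114, 158, 81.7 and 11.4 CPM with LPS. The last replicate of each group, numbered 57 to 60, had 8.42 to 17.98 CPM, and the other 15 libraries had 41.4 to 160.1 CPM, so the groups overlapped. Libraries 57 to 60 are those with low macrophage markers, and the part of those cells in the level of Ifi27l2a was not tested. The share of all genes that stand apart in this way was not counted. For Ifi27l2a the log2 differences were −0.13 ± 0.73 in WT and 0.52 ± 0.69 in APP.

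The remaining effectors covered a broad range of levels. Slfn5, a regulator of growth and transcription, ranged over 111 to 494 CPM with vehicle and 179.6 to 594 CPM with LPS. Trim30a, a ubiquitin ligase that restrains NF-κB, ranged over 71.8 to 237 CPM with vehicle and 147 to 327 CPM with LPS. Xaf1, a promoter of cell death, ranged over 31.5 to 219 CPM with vehicle and 74.3 to 193 CPM with LPS, and Phf11d over 11.7 to 314 CPM with vehicle and 69.3 to 238 CPM with LPS. Parp14, a mono-ADP-ribosyltransferase, ranged over 15.2 to 100.3 CPM with vehicle and 51.9 to 129 CPM with LPS, and Sp100, of nuclear bodies, over 28.5 to 103 CPM with vehicle and 34.0 to 116 CPM with LPS. Ifi44 ranged over 0 to 314 CPM with vehicle and 32.9 to 192 CPM with LPS and had no count in 2 libraries. Ifi35 ranged over 4.26 to 34.7 CPM with vehicle and 9.23 to 38.8 CPM with LPS, and its WT difference of −0.32 ± 0.47 was the lowest of the 37 genes.

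The first comparison asked which of these genes differed in WT cells 16 h after LPS was removed. In WT, 35 of the 37 genes had log2 differences above 0, with a median of 0.74, against 49.3% of all genes and a median of −0.01. The exceptions were Ifi27l2a and Ifi35. Called at an adjusted p under 0.05, by edgeR's quasi-likelihood test with Benjamini-Hochberg adjustment over 14113 genes, were 0 of the 37 genes, against 0% of all genes. At an unadjusted p under 0.05 there were 4, Irf7, Bst2, Zbp1 and Parp14, each higher with LPS, against 3.66% of all genes in either direction and 2.48% as higher. DESeq2 called 0 of the 37 and 0.732% of all genes.

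The same comparison in APP cells gave log2 differences above 0 in 33 of the 37 genes, with a median of 0.51, against 46.9% of all genes and a median of −0.03. The exceptions were Ifit2, Irf1, Mx1 and Oas2. Again 0 of the 37 and 0% of all genes were called by edgeR, 2 had an unadjusted p under 0.05 (Stat2 and Rtp4, both higher, against 4.81% of all genes in either direction and 1.74% as higher), and DESeq2 called 0 of the 37 and 0.699% of all genes. The APP median rested on APP vehicle replicate 5: without that library it was 1.20, and without libraries 57 to 60 it was 1.10. In WT, leaving out 1 library at a time moved the median between 0.49 and 0.90.

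Averaged over both genotypes, all 37 genes had log2 differences above 0, with a median of 0.59, against 47.9% of all genes. Of these 0 were called by edgeR, against 0.0213% of all genes (3 genes), and DESeq2 called 0 of the 37 and 1.33% of all genes. An unadjusted p under 0.05 was reached by 9 of the 37 (6.15% of all genes in either direction and 3.13% as higher): Ifit1, Irf7, Stat2, Rtp4, Bst2, Ifitm3, Zbp1, Trim30a and Parp14. The largest of these differences were 1.48 ± 0.47 for Zbp1 (adjusted p = 0.552) and 1.24 ± 0.38 for Irf7 (adjusted p = 0.497). The common dispersion of this fit was 1.053. It takes no account of library pairs, and the fit with the pair as a block, given below, called Zbp1 and Ifit1.

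Within pairs of consecutive library numbers the LPS difference was large in 5 pairs, small in 2 and below 0 in 2. Over all genes tested, LPS libraries and their vehicle neighbours deviated together from their group means in all 9 pairs. The sums of the 37 genes deviated together in pairs 11 and 12, 21 and 22, 41 and 42 and 59 and 60. In the other pairs 1 library lay above its group mean and 1 below. The labels do not say that neighbours share a culture. In APP pair 3 and 4, 32 of the 37 genes were higher with LPS (38.5% of all genes were), with a median log2 difference of 1.61. In APP pair 7 and 8 there were 35 (45.2% of all genes), with a median of 2.04, and in APP pair 11 and 12 there were 32 (44.0%), with a median of 1.44. WT pair 9 and 10 had 34 genes higher (47.2% of all genes) and a median of 1.82. WT pair 21 and 22 had 33 (48.3%) and a median of 0.89. The difference was smaller in later WT pairs: pair 41 and 42 had 26 genes higher (45.1% of all genes) and a median of 0.44, and pair 57 and 58 had 24 (50.8%) and 0.23. In APP pair 51 and 52, 8 genes were higher (45.6% of all genes), with a median of −0.16, and in APP pair 59 and 60, 3 were (46.3%), with a median of −0.57. The 5 pairs with vehicle libraries numbered 21 or below are those with low vehicle sums, as above, while the LPS sums of the 2 sets of pairs covered 2942 to 4682 CPM and 2922 to 4414 CPM. A low vehicle level enters both the vehicle spread and the pair difference, so these are not independent observations.

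**Figure D5:**
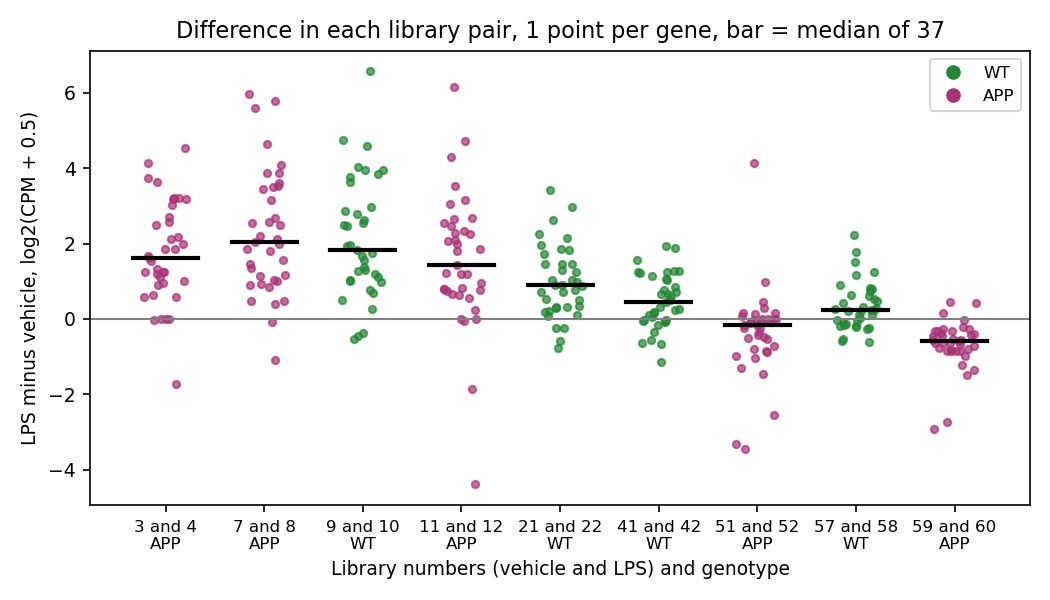
LPS minus vehicle in log2(CPM + 0.5) for each of the 37 genes (points) in each pair of consecutive library numbers, with green for WT, purple for APP and a bar at the median of 37. The medians are 0.89 to 2.04 in the 5 pairs up to 21 and 22, between −0.57 and 0.44 in the 4 later pairs, and lowest in pair 59 and 60.

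The inflammatory reference, 20 transcripts of the NF-κB response to LPS, was higher with LPS in every pair. Its summed levels were 1.60 to 6.20 times those of vehicle. These transcripts were chosen with earlier results of these data known, so their rise is no independent finding. The ratio of the summed level of the 37 interferon-stimulated genes was 0.634 to 3.399, and below that of the reference in all 9 pairs. In pair 59 and 60 the reference ratio was 1.60 while the interferon-stimulated genes had a ratio of 0.634, and in pair 51 and 52 the ratios were 2.06 and 0.887. In those 2 pairs, therefore, LPS libraries held more inflammatory transcripts and fewer interferon-stimulated ones than their vehicle neighbours, a description without a test.

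No gene of the 37 was higher with LPS in all 9 pairs (0.935% of all genes were), and 13 were higher in at least 7 (10.3% of all genes). Ifitm3, Zbp1 and Phf11d were higher in 8. Irf1, Ifi27l2a and Ifi35 were higher in fewer than 5. With the library pair as a block, averaged over genotypes, 2 of the 37 genes rose: Zbp1 by 2.04 ± 0.44 (edgeR adjusted p = 0.0442) and Ifit1 by 1.67 ± 0.36 (adjusted p = 0.0447), against 1.5% of all genes called and 0.815% called as higher. With the pair as a random effect (limma voom) 1 of the 37 was called, Zbp1, against 0.482% of all genes. Next by p in the block fit were Ifitm3 at 0.45 ± 0.12 (adjusted p = 0.0652), Isg15 at 1.68 ± 0.38 (adjusted p = 0.0677) and Parp14 at 0.94 ± 0.24 (adjusted p = 0.0786). Within WT or APP alone this fit called 0 of the 37, against 0.149% and 0.588% of all genes; the median differences were 0.86 and 0.82. Leaving out 1 pair at a time, the WT contrast kept 0 calls (0.0213% to 0.255% of all genes), with medians of 0.59 to 1.11. In APP there were 2 calls without pair 59 and 60 (Isg15 and Rtp4, against 1.01% of all genes). Without any other pair there were 0 (0.0638% to 0.9% of all genes). The APP medians ran from 0.41 without pair 7 and 8 to 1.42 without pair 59 and 60. The averaged calls of Zbp1 and Ifit1 depend on single pairs. In that contrast the fit called 0 of the 37 without pair 3 and 4, 9 and 10, 11 and 12 or 21 and 22, and 1 (Zbp1) without pair 7 and 8. It called 4 without pair 41 and 42, 5 without 51 and 52, 3 without 57 and 58, and 12 without pair 59 and 60, while 0.822% to 2.0% of all genes were called in these fits. WT LPS replicate 1 has no vehicle neighbour and adds nothing to the difference in that fit.

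The second question in the design was whether the APP genotype altered these genes. With vehicle, 24 of the 37 genes were higher in APP than in WT, with a median log2 difference of 0.09, against 51.3% of all genes. The edgeR test called 0 of the 37 and 0% of all genes at an adjusted p under 0.05, and 0 of the 37 had an unadjusted p under 0.05 (2.85% of all genes). This small median turned on 1 library: without APP vehicle replicate 5 it was −0.52. After LPS, 20 of the 37 genes were higher in APP, with a median of 0.04 (49.6% of all genes), and again 0 were called and 0 had an unadjusted p under 0.05 (3.42% of all genes). The interaction, the LPS difference in APP minus that in WT, had a median of −0.18 with 14 genes above 0 (47.0% of all genes), and 0 of the 37 were called or had an unadjusted p under 0.05 (2.73% of all genes). Without APP vehicle replicate 5 its median was 0.44. DESeq2 called 0 of the 37 in each of these contrasts, against 0.588%, 0.608% and 0.738% of all genes. For Isg15 the interaction was −0.51 ± 1.10, for Ifit1 −0.18 ± 0.95 and for Zbp1 −0.23 ± 0.95, each smaller than its SE. Across the 37 genes the SE of the interaction ran from 0.328 to 3.20 on the log2 scale.

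Upstream genes of the pathway were read from lists that were compiled with earlier results of these data known. Of 21 interferon genes, 2 have rows in the tables used here, and neither had enough counts to be tested. Ifnb1, encoding interferon β, had 28 counts, all in WT LPS replicate 2 (1.15 CPM). Ifnz had 55 counts in 2 vehicle libraries.

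Of 18 genes for interferon receptors, kinases, STATs and their inhibitors, 17 were tested and the group fit called 0. Ifnar1 spanned 28.7 to 49.6 CPM with vehicle and 22.5 to 52.6 CPM with LPS, and its averaged log2 difference was −0.11 ± 0.19. Ifnar2 spanned 167 to 251 CPM with vehicle and 191 to 314 CPM with LPS (0.31 ± 0.13). With the library pair as a block, averaged over genotypes, 2 of the 17 rose and 0 fell, against 0.815% of all genes called as higher. These were Jak2, a kinase of other cytokine receptors including that of interferon γ, by 0.92 ± 0.16 (edgeR adjusted p = 0.00382), and Socs3, a feedback inhibitor of the IL-6 family receptors, by 1.35 ± 0.22 (adjusted p = 0.00355). Neither belongs to the receptor of type I interferon.

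Sensors and adaptors that lead to interferon gave 0 calls among 18 tested in either fit. Tlr4, the LPS receptor, spanned 13.9 to 47.1 CPM with vehicle and 12.4 to 35.2 CPM with LPS. Ticam1, encoding TRIF, spanned 3.11 to 15.5 CPM with vehicle and 0.328 to 9.31 CPM with LPS, and Ticam2, encoding TRAM, 6.21 to 32.01 CPM with vehicle and 11.4 to 37.3 CPM with LPS. Irf3 spanned 0 to 25.1 CPM with vehicle and 6.61 to 31.1 CPM with LPS. In the group fit, averaged over genotypes, Rigi, the RNA sensor RIG-I, differed by 0.50 ± 0.23, Mavs, its adaptor, by −0.64 ± 0.31, and Ikbke, a kinase of IRF3, by 0.72 ± 0.33.

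A further list of 68 interferon-stimulated genes outside the 37 had 66 tested. In WT, 57 of them were above 0 (49.3% of all genes), with a median of 0.41, and in APP 52 (46.9%), with a median of 0.35; the group fit called 0. With the library pair as a block, averaged over genotypes, 4 of the 66 rose and 0 fell, against 0.815% of all genes called as higher. Gbp2, a GTPase known to respond most to interferon γ, rose by 2.22 ± 0.37 (edgeR adjusted p = 0.00759). Slfn2, needed for quiescence of immune cells, rose by 0.99 ± 0.17 (adjusted p = 0.00491), Ifi211, of the DNA sensor family, by 1.22 ± 0.27 (adjusted p = 0.0359), and Helz2, a transcriptional coactivator, by 0.98 ± 0.23 (adjusted p = 0.0427). Cxcl10, an interferon-induced chemokine, spanned 0 to 212 CPM with vehicle and 4.07 to 83.8 CPM with LPS, with an averaged difference of 0.11 ± 0.93 in the group fit and 1.76 ± 0.72 with the pair as a block (adjusted p = 0.607). For comparison, the group fit averaged over genotypes called Il1b, at 3.05 ± 0.43 (adjusted p = 0.0148), and Tnf, at 1.56 ± 0.23 (adjusted p = 0.0148). With the library pair as a block, averaged over genotypes, 18 of the 20 inflammatory genes rose against 2 of the 37 interferon-stimulated ones. Both lists were chosen with earlier results of these data known, so neither count is independent of that choice. The difference between these counts was not tested.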

How the data were processed

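QuantSeq 3′ libraries (forward kit, single-end 100-base reads) were made from 19 RNA samples with an integrity number above 8.5, per the labels' protocols. The submitters' processing notes name FastQC, Trimmomatic, kallisto and DESeq2. Not given in the sources used here are their versions and roles, the transcriptome build and whether reads with equal molecular identifiers were merged. The authors deposited estimated counts for each gene symbol, already whole, so that rounding changed 0 values. The smallest total of a gene was 10 counts, and 0 rows were ERCC spike-ins.

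The 37 genes and all lists were chosen with earlier results of these data known. Counts were scaled by the trimmed mean of M values and tested with edgeR 4.0.16 (limma 3.58.1, R 4.3.3), with 1 coefficient per group over all 19 libraries. After filterByExpr, which removed 2828 genes, 14113 were tested with 15 residual degrees of freedom. Calls are those at a Benjamini-Hochberg adjusted p under 0.05 over these genes. Set tests were not used: lists are described by counts and medians beside all genes. The group fit and the library pair fit were tried on simulated counts with known LPS changes. Those counts held no pair effect and no difference between earlier and later vehicle libraries.

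Groups came from the sample titles. Neighbouring library numbers were used as pairs in an alternative fit (7 residual degrees of freedom). The reason was that, over all genes tested, paired libraries deviated together from their group means. Correlations were 0.128 to 0.366 in WT and 0.189 to 0.432 in APP (log2 of CPM + 0.5), and each of 18 libraries was closest to its own neighbour. With 0.1 CPM added instead, the lowest WT correlation was 0.097, and 9 of 10 APP libraries were closest to their own neighbour. WT LPS replicate 1 is labelled library 5, its deposited table carries the number 6, and it is unpaired. No libraries of a group were copies (smallest chi-square per degree of freedom 85.9 over 36 pairings). DESeq2 1.42.0 and limma's voom were further alternatives, with other scalings, filters, blocks and left-out libraries.

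Values in every library are given for 20 genes, by a rule set with the lists: the ISGF3 and IRF factors Irf7, Irf9, Stat2 and Irf1; Ifit1, Ifit3, Isg15, Usp18, Rsad2, Mx1, Oasl2, Oas1a, Bst2, Ifitm3, Ifi27l2a, Eif2ak2, Ifih1, Dhx58, Zbp1 and Ifi204; and any gene called. From the pathway lists, genes called, the smallest p-values and named ligands, receptors and adaptors are given. Shared sequence was counted as words of 31 bases in GENCODE M21 transcripts, over their whole length and not only the 3′ ends.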

Additional observations from a re-analysis of the deposited data

Results flagged for a closer look

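In 80 groups of 4 or 5 libraries (20 genes in 4 groups), 7 held a library that stood far from the others of its group by Dixon's 95% criterion; chance flags about 1 in 20 groups. Of these 7, 4 were APP vehicle replicate 5. It had 150.5 CPM of Ifit1, with the nearest APP vehicle library at 46.8 CPM, and 304 CPM of Ifit3, with the nearest at 50.2 CPM. It had 20.8 CPM of Usp18, with the nearest at 4.33 CPM, and 59.7 CPM of Zbp1, with the nearest at 13.998 CPM. WT vehicle replicate 3 had 107.8 CPM of Ifi204, with the nearest WT vehicle library at 36.7 CPM. WT LPS replicate 2 had 46.4 CPM of Stat2, with the nearest at 32.7 CPM. APP LPS replicate 2 had 59.9 CPM of Oas1a, with the nearest at 32.9 CPM, in a gene whose sequence is mostly shared with Oas1g.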

How the results depend on the processing

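With the library pair as a block, averaged over genotypes, 2 of the 37 genes were called, Zbp1 and Ifit1, against 1.5% of all genes. The group fit had called 0 of the 37 and 0.0213% of all genes. With the pair as a random effect in limma's voom fit 1 was called, Zbp1, against 0.482% of all genes. Leaving out 1 pair at a time from the block fit, an alternative chosen after seeing the data, gave 0 to 12 genes. There were 0 without pair 3 and 4, 9 and 10, 11 and 12 or 21 and 22, against 0.85% to 1.3% of all genes. There was 1 without 7 and 8 (0.822% of all genes), and 3 without 57 and 58 (1.41%). There were 4 without 41 and 42 (1.72%), 5 without 51 and 52 (1.23%) and 12 without 59 and 60 (2.0%). In APP alone, 2 were called without 59 and 60 (median difference 1.42), against 1.01% of all genes. Without any other pair 0 were called in APP, against 0.0638% to 0.9% of all genes. In WT alone 0 were called without any pair, against 0.0213% to 0.255% of all genes. The cause was not tested. A replicate block by the numbers in the sample titles pairs the APP libraries as the library numbers do. It does not so pair the WT ones (correlations of −0.117 to 0.0731). This block called 0 of the 37 in each of the 6 contrasts, against 0% to 0.106% of all genes. Its median differences were 0.65 in WT and 0.77 in APP. The block by library pair changed the call of no other gene with values in every library. DESeq2, other scalings, other filters, robust dispersion, fits of only the groups compared and each library left out of the group fit called 0 of the 37 in all 6 contrasts. Leaving out 1 library at a time moved the median difference between 0.49 and 0.90 in WT, 0.36 and 1.20 in APP and 0.44 and 0.96 averaged, −0.41 and 0.44 for the interaction, −0.52 and 0.33 for APP against WT with vehicle, and −0.04 and 0.22 after LPS. The bounds 1.20, 0.44 for the interaction and −0.52 all came from leaving out APP vehicle replicate 5. Mx1, Oas2 and Oasl1 were at 0 in 6, 9 and 7 libraries and had at least 16, 18 and 44 counts in the others; a count of 0 allows up to 3 counts.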

Other observations

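The 67 further interferon-stimulated genes with rows in the tables, which are not among the 37, had their own spread between vehicle libraries. Their summed level was 1851 CPM in vehicle library 3, 2280.4 in 7, 2199.8 in 9, 2115 in 11 and 2315 in 21. It was 3649 CPM in vehicle library 41, 3481 in 51, 2895 in 57 and 4705 in 59, so the 4 later vehicle libraries stood above the 5 earlier ones. The libraries are the same as for the 37 genes, so this is no independent observation of the split. The LPS libraries held 3145 to 4908 CPM. The 18 receptor and kinase genes spanned 1379 to 1868 CPM with vehicle and 1566 to 1919 CPM with LPS, with vehicle library 57 lowest and vehicle library 41 the highest of the vehicle libraries. The 18 sensor and adaptor genes spanned 374 to 587 CPM with vehicle and 347 to 673 CPM with LPS. These sums are descriptions with no test.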
